A study of Mus musculus with 8 samples.

Results

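The mRNA of 36 genes for heterotrimeric G protein subunits and regulators of G protein signalling (RGS) was compared between the mouse cell lines LLC1 and MLE12. The genes comprise 12 Gα, 5 Gβ, 10 Gγ and 9 RGS genes, out of 43346 genes in the deposited count table. They were chosen by gene name from a list drawn up with earlier results of these data in view, so the differences given here describe the genes and count as no independent support for any pattern among them. No name occurred more than once in the table (0 of 36), so each gene had a single row. LLC1 is the Lewis lung carcinoma line. MLE12 is an epithelial line of mouse lung, derived from a tumour in a transgenic animal in which the surfactant protein C promoter drove SV40 large T. Each line, obtained from ATCC and grown without added reagents to about 80% confluence, gave 4 libraries of poly-A RNA.

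A heterotrimeric G protein joins a GTP-binding α subunit to a βγ dimer beneath a seven-pass membrane receptor. An activated receptor makes Gα exchange GDP for GTP, and Gα and βγ then each act on effectors: Gs raises and Gi lowers adenylyl cyclase activity, Gq activates phospholipase C β, and G12/13 acts on the cytoskeleton. RGS proteins speed the hydrolysis of GTP by Gα and so shorten the signal. In alveolar epithelium such signals are known for their part in surfactant secretion and fluid clearance.

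Depth was 46.8 to 55.3 M counts per LLC1 library and 48.6 to 76.7 M per MLE12 library. Levels are in CPM, counts per 1 M counts of the scaled library size, and are given as mean ± SD (n = 4 libraries per line). Per 1 M counts of the unscaled library total, a count of 0 allows up to 0.064 at the lowest depth and 0.0391 at the highest. These limits hold counting error only and take counts as independent. Fold changes are on the log2 scale with their SE and put LLC1 over MLE12, with adjusted p-values from edgeR's quasi-likelihood test over all 18546 genes tested. Separate cultures are not named for the 4 libraries of a line, so these p-values measure the spread between libraries, which may be technical. Of 8 alveolar type II markers, 3 were at 0 in every LLC1 library and 1 (Sftpd) in every MLE12 library. Of the 8 markers, 7 averaged under 1 CPM in LLC1 and 4 in MLE12. Their summed level was 49.9 to 56.4 CPM in LLC1 and 318 to 339 in MLE12. In LLC1 the sum was nearly all Abca3 (51.8 CPM in LLC1 and 124 in MLE12). In MLE12 it was mostly Nkx2-1 (0.664 CPM in LLC1 and 147 in MLE12) and Abca3. Of 8 leukocyte markers, 6 averaged under 1 CPM in each line (summed level 17.9 to 20.6 CPM in LLC1 and 13.8 to 16.5 in MLE12), and Ptprc, the pan-leukocyte marker, averaged 0 CPM in LLC1 and 0.00663 in MLE12. Csf1r (10.5 CPM in LLC1 and 12.8 in MLE12) and Cd68 (8.37 CPM in LLC1 and 2.17 in MLE12) made up nearly all of the leukocyte sum. Of the 6 endothelial markers, 6 averaged under 1 CPM in LLC1 and 5 in MLE12 (summed level 0.457 to 0.898 CPM in LLC1 and 3.02 to 3.78 in MLE12). Sftpc, the mouse gene for surfactant protein C, averaged 0.154 CPM in LLC1 and 23.6 in MLE12. The 6 pericyte and smooth muscle markers all averaged under 1 CPM in each line, with summed levels of 1.45 to 1.89 CPM in LLC1 and 0.822 to 1.12 in MLE12. The summed level of 8 epithelial markers was 487 to 522 CPM in LLC1 and 1126 to 1205 in MLE12, of 8 mesenchymal markers 6216 to 6693 CPM in LLC1 and 1289 to 1334 in MLE12, and of 6 neural markers 5.40 to 8.16 CPM in LLC1 and 31.7 to 34.8 in MLE12. Members of these lists moved in opposite directions: Krt18 averaged 293 CPM in LLC1 and 0.930 in MLE12, Col1a1 0.313 CPM in LLC1 and 17.5 in MLE12, and the neural sum was mostly Snap25 in LLC1 (6.16 CPM, against 0.0193 CPM in MLE12) and Map2 in MLE12 (0.193 CPM in LLC1 and 32.9 in MLE12). Of the 8 epithelial markers 2 were called for LLC1 and 6 for MLE12, and of the 8 mesenchymal markers 5 for LLC1 and 3 for MLE12. The part of these markers in the differences between the lines was not tested.

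Gng2, Rgs16, Rgs14, Gng8 and Gnb4 were much higher in LLC1, and Gnai1, Rgs2, Gnaz, Gna11 and Rgs10 were higher in MLE12. In these bulk samples fewer cells with a transcript and less of it per cell cannot be told apart. Of the 36 genes, 31 had enough counts to be tested. The test called 14 of these for LLC1 as the higher line and 12 for MLE12, and left 5 uncalled. Over all genes tested 81.6% were called, 40.7% higher in LLC1 and 40.9% higher in MLE12, so the share called among the G protein genes was near that of the transcriptome. Against a minimum fold of 2, LLC1 was higher for 7 genes and MLE12 for 5, where the background was 33.7% of all genes (16.7% higher in LLC1 and 16.9% in MLE12). The median log2 fold change was 0.10 over the 31 genes and 0.02 over all genes tested.

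**Figure D1:**
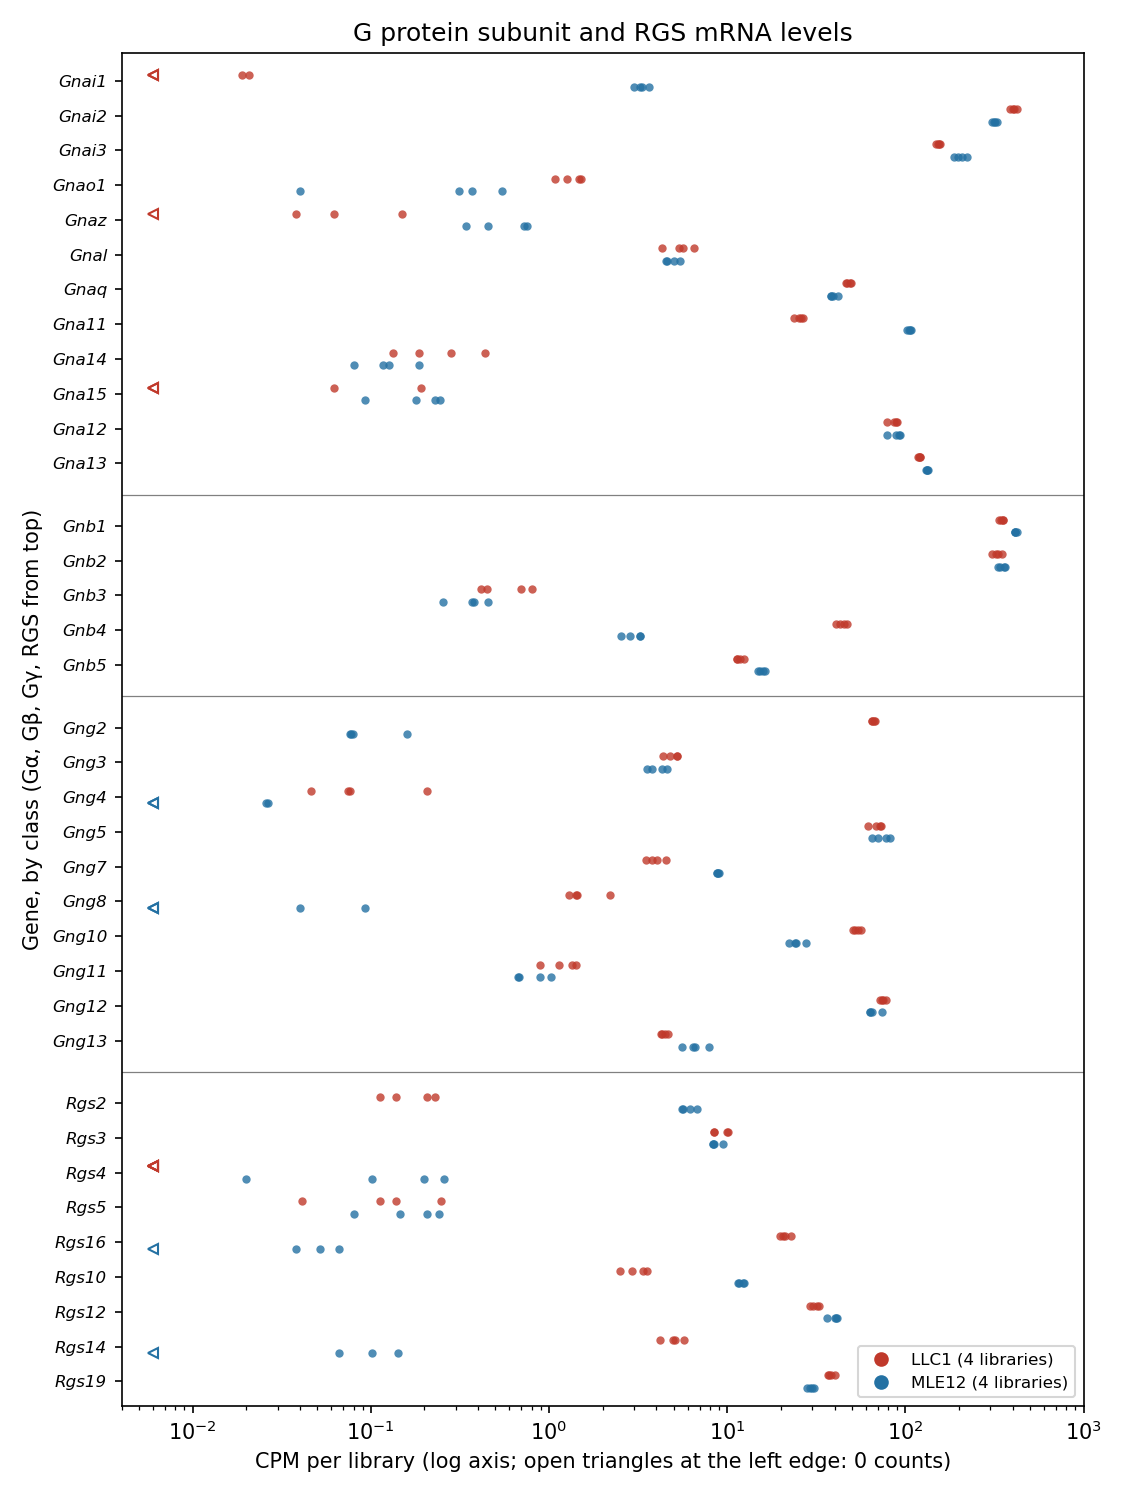
CPM on a log axis in each of the 8 libraries for all 36 genes, with LLC1 libraries in red above MLE12 libraries in blue in each row and open triangles at the left edge for a count of 0. Gng2 sits near 66 CPM in the 4 LLC1 libraries and near 0.1 CPM in the MLE12 libraries, while abundant genes such as Gnai2 and Gnb1 lie close together in the lines.

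The genes with the largest difference in each direction among subunits and among RGS genes were Gng2 and Rgs16, higher in LLC1, and Gnai1 and Rgs2, higher in MLE12. Their promoter sequences are shown because these genes differ most between the lines, and the windows differ in CG content. Each is the 250 bases upstream of the RefSeq start in build GRCm38.p6, 5′ to 3′ on the gene's strand. Gng2 lies at chr14:19976694-19976943 (minus strand), Rgs16 at chr1:153740103-153740352 (plus strand), Gnai1 at chr5:18360414-18360663 (minus strand) and Rgs2 at chr1:144004150-144004399 (minus strand). Capitals mark matches on either strand to GGGCGG, the GC box, or to TGANTCA, an AP-1 type motif. TATAAA and TGACGTCA, the cAMP response element, were searched on both strands too and have no match in these 4 windows.
Gng2: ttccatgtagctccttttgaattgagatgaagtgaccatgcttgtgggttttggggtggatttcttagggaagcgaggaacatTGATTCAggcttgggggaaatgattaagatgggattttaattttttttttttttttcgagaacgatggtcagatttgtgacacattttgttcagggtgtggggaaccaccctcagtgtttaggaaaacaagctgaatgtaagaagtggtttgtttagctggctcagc
Rgs16: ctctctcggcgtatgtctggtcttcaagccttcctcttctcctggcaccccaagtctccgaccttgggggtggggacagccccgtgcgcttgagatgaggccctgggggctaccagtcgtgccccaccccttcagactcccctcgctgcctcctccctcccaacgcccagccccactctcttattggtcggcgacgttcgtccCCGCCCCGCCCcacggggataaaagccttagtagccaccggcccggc
Gnai1: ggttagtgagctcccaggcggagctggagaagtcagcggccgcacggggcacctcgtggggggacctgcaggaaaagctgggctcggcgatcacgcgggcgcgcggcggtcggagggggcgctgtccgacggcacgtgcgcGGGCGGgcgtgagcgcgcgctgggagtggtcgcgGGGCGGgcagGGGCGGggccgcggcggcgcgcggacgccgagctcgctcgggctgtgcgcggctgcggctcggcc
Rgs2: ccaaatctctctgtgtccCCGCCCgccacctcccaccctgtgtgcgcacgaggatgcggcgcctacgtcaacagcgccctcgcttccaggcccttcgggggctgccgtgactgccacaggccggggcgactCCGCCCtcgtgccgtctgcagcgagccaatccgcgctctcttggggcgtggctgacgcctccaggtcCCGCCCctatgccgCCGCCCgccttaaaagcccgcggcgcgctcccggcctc
The Gng2 window holds 3 CG dinucleotides and 1 match, to TGANTCA. The Rgs16 window holds 17 CG dinucleotides and 2 overlapping GC box matches, the Gnai1 window 43 and 3 matches, and the Rgs2 window 30 and 4 matches. The RefSeq start of Gng2 lies 934 bases inside the deposited gene span, against 4 bases for Rgs16, 0 for Gnai1 and 12 for Rgs2, so for Gng2 the window need not be the start used in these cells. RefSeq windows were matched for 29 of the 36 genes, all but Gnai2, Gnaz, Gnal, Gnb3, Gnb4, Gng11 and Rgs14. Taking the window with most CG dinucleotides where a gene has several, the median was 18 for the 29 genes and 6 over 27025 genes. Among genes past the 2-fold test it was 17 for the 5 matched genes higher in LLC1 and 34 for the 4 higher in MLE12. These few genes were picked by their fold change, and the sets overlapped: Gnao1, higher in LLC1, had 36 and Rgs10, higher in MLE12, had 27. The RefSeq start of Rgs10 lies 586 bases inside its deposited span. Whether CG content goes with the direction of the difference was not tested. A GC box was present for 19 of the 29 genes and for 35.4% of all genes, TATAAA for 3 and 14.3%, TGANTCA for 2 and 7.82%, and TGACGTCA for 0 and 1.77%. The 27025 genes were not limited to those with enough counts to be tested here, so no share over expressed genes is given. These are descriptions of the letters in the windows.

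Among Gα genes, the inhibitory subunits Gnai2 and Gnai3 made up most of the listed Gα mRNA in each line. Of 12 Gα genes 10 were tested, of which 3 were called for LLC1, 5 for MLE12 and 2 for neither (median log2 fold change -0.10). Gnai2 (chromosome 9, 107614125 to 107635367, mm10) stood at 399, 386, 422 and 406 CPM in LLC1 and 327, 306, 319 and 312 in MLE12. Every LLC1 library lay above every MLE12 library (log2 fold change 0.35 ± 0.04, edgeR adjusted p = 2.6e-07). Gnai3 went the other way, at 152 ± 3.40 CPM in LLC1 and 204 ± 14.8 in MLE12 (-0.42 ± 0.05, edgeR adjusted p = 1.7e-07). Divided by gene length, Gnai2 held 50.2% of the listed Gα mRNA in LLC1 and 36.9% in MLE12, and Gnai3 held 22.0% in LLC1 and 27.6% in MLE12. Gnas, the stimulatory subunit, was not among the 36 genes. It averaged 658 CPM in LLC1 and 785 in MLE12 (log2 fold change -0.26 ± 0.04, edgeR adjusted p = 1.9e-05), above Gnai2 in each line. Divided by its deposited length of 11186 bases, its level was 58.8 CPM per kb in LLC1 and 70.2 in MLE12, below that of Gnai2 (107 in LLC1 and 83.6 in MLE12), so its rank depends on the length used.

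The third inhibitory subunit, Gnai1, described after its values were seen, was nearly absent from LLC1. Gnai1 (chromosome 5, 18265135 to 18360413, mm10) had 0, 0, 1 and 1 counts in the LLC1 libraries and 251, 225, 262 and 181 counts in the MLE12 libraries. From summed counts its level in MLE12 was 345 times that in LLC1 (exact 95% interval 95.3 to 2856, counting error only). The interval takes counts as independent, and whether both mates of a pair were counted was not tested. Even in MLE12 it averaged 3.29 ± 0.262 CPM and held 0.455% of the listed Gα mRNA. Gnaz, whose product alone within the inhibitory class resists pertussis toxin, stood at 0.0624 ± 0.0635 CPM in LLC1 and 0.568 ± 0.204 in MLE12 (-3.10 ± 0.51, edgeR adjusted p = 1.9e-05). LLC1 replicate 2 held 8 of its 13 LLC1 counts, and without that library the log2 fold change of Gnaz was -3.98. Gnao1, the Gα most abundant in brain, stood at 1.32 ± 0.199 CPM in LLC1 and 0.317 ± 0.210 in MLE12 (1.99 ± 0.37, edgeR adjusted p = 9.1e-05). Thus 3 genes of the inhibitory class differed past 2-fold, all at under 5 CPM in the higher line.

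In the Gq class the lines differed in Gna11. Gna11 (chromosome 10, 81528724 to 81545190, mm10) stood at 23.8, 25.3, 26.0 and 26.8 CPM in LLC1 and 106, 107, 104 and 102 in MLE12 (log2 fold change -2.04 ± 0.05, edgeR adjusted p = 2.5e-18). Its close relative Gnaq stood at 46.5, 48.6, 47.1 and 49.5 CPM in LLC1 and 38.4, 39.0, 38.3 and 41.7 in MLE12 (0.29 ± 0.05, edgeR adjusted p = 1.9e-05). For each gene the libraries of the lines did not overlap. Per length, Gnaq lay above Gna11 in LLC1 (7.75 ± 0.226 against 6.22 ± 0.305 CPM per kb) and below it in MLE12 (6.36 ± 0.262 against 25.6 ± 0.553 CPM per kb). Gna11 held 2.93% of the listed Gα mRNA in LLC1 and 11.3% in MLE12. Gna14 and Gna15, the other Gq class genes, had too few counts to be tested, with 50 and 13 counts over the LLC1 libraries and 37 and 53 over the MLE12 libraries. Gna15 is known from blood cells, and its level stayed under 0.25 CPM in all 8 libraries. Gna14 was tested and called without LLC1 replicate 3 or 4, and Gna15 without LLC1 replicate 4 or MLE12 replicate 2.

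The subunits of the G12/13 class differed little between the lines. Gna12 stood at 86.1, 78.6, 89.5 and 88.5 CPM in LLC1 and 91.7, 93.2, 88.3 and 78.9 in MLE12. The libraries overlapped and the difference was not called (-0.04 ± 0.05, edgeR adjusted p = 0.50). The antisense gene Amz1 overlaps 13.3% of the Gna12 exon bases. Gna13 stood at 119.6 ± 1.79 CPM in LLC1 and 133 ± 1.69 in MLE12 (-0.15 ± 0.04, edgeR adjusted p = 0.0015). Gnal, the olfactory stimulatory subunit, stood at 6.47, 5.37, 4.30 and 5.63 CPM in LLC1 and 4.57, 5.0, 4.53 and 5.42 in MLE12, and was not called (0.16 ± 0.12, edgeR adjusted p = 0.23), although it was without LLC1 replicate 3. In order of level per length, neighbours among the 8 most abundant Gα genes had separate ranges over libraries in LLC1, while in MLE12 the ranges of Gna12 and Gna11 overlapped.

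**Figure D2:**
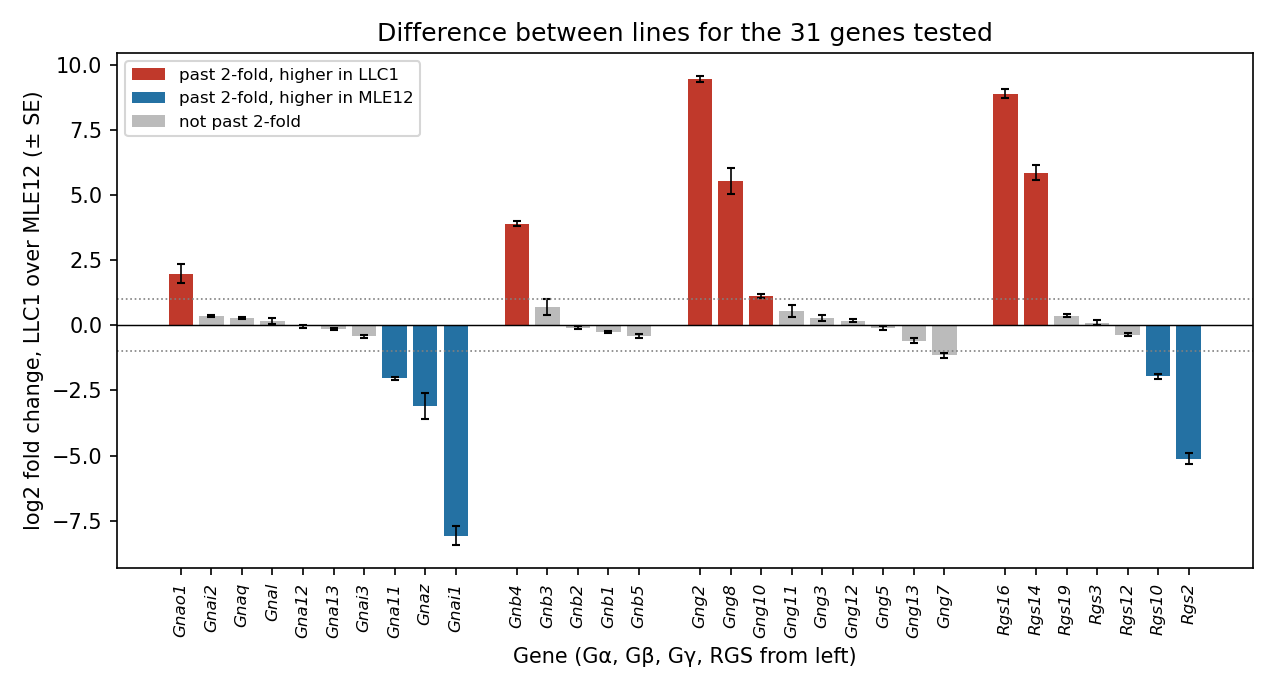
Log2 fold change, LLC1 over MLE12, with SE for the 31 genes tested, red and blue where the gene passed the test against a minimum fold of 2 and grey where it did not; dotted lines mark 2-fold. Gng2 and Rgs16 reach 9.45 and 8.88 toward LLC1, and Gnai1 reaches -8.07 toward MLE12.

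The Gβ pool consisted almost wholly of Gnb1 and Gnb2, and Gnb4 was the Gβ gene that differed past 2-fold. Of the 5 Gβ genes, 2 were called for LLC1, 2 for MLE12 and 1 for neither (median log2 fold change -0.09). Gnb2 stood at 330, 305, 346 and 324 CPM in LLC1 and 361, 338, 356 and 332 in MLE12, with overlapping libraries and no call (-0.09 ± 0.05, edgeR adjusted p = 0.088), and a call for MLE12 without LLC1 replicate 3 or MLE12 replicate 4. Gnb1 stood at 347 ± 7.90 CPM in LLC1 and 416 ± 5.73 in MLE12 (-0.26 ± 0.04, edgeR adjusted p = 4.0e-06). Per length, Gnb2 held 50.3% of the Gβ mRNA in LLC1 and 47.8% in MLE12, and Gnb1 held 42.6% in LLC1 and 45.8% in MLE12, where the library ranges of the pair overlapped. Without division by length Gnb1 led in each line, with 47.5% against 44.7% for Gnb2 in LLC1 and 53.2% against 44.3% in MLE12. Gnb4 (chromosome 3, 32580332 to 32616585, mm10) stood at 41.0, 43.1, 45.0 and 46.8 CPM in LLC1 and 2.83, 2.52, 3.22 and 3.22 in MLE12. The lines were far apart in every library (log2 fold change 3.90 ± 0.08, edgeR adjusted p = 4.1e-19). With a deposited length of 12692 bases, Gnb4 made up 1.82% of the Gβ mRNA in LLC1 and 0.109% in MLE12.

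Gnb5, which pairs with RGS proteins of the R7 group in place of Gγ, stood at 11.7 ± 0.474 CPM in LLC1 and 15.6 ± 0.628 in MLE12 (-0.41 ± 0.07, edgeR adjusted p = 1.3e-05). Of its R7 partners Rgs6, Rgs7, Rgs9 and Rgs11, named after their values were seen, only Rgs11 in LLC1 exceeded 1 CPM (8.81 CPM, against 0.514 CPM in MLE12, log2 fold change 4.12 ± 0.19, edgeR adjusted p = 3.4e-13). Gnb3, known from cone photoreceptors, was low, at 0.589 ± 0.188 CPM in LLC1 and 0.364 ± 0.0823 in MLE12 (0.69 ± 0.31, edgeR adjusted p = 0.048). That call was lost without LLC1 replicate 1 or 4 and without MLE12 replicate 2, 3 or 4, and the libraries of the lines overlapped.

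Gγ subunits anchor the βγ dimer to the membrane through a lipid on the C terminus, and here they showed the largest difference of all 36 genes. Of 10 Gγ genes 9 were tested, of which 6 were called for LLC1, 2 for MLE12 and 1 for neither (median log2 fold change 0.27). Gng2 (ENSMUSG00000043004, chromosome 14, 19872559 to 19977627, mm10) stood at 67.8, 65.1, 66.2 and 64.5 CPM in LLC1 and 0.0776, 0.0795, 0.0761 and 0.160 in MLE12. The MLE12 values rest on 6, 6, 6 and 8 counts. The log2 fold change was 9.45 ± 0.11 (edgeR adjusted p = 6.9e-23), and the MLE12 level was 0.149% of that in LLC1. For comparison, the lowest such share among 2200 genes of at least 100 CPM in LLC1 was 0.160%. Whether the few Gng2 counts in MLE12 come from MLE12 transcripts was not tested. The antisense gene Gm48283 covers 20.4% of the Gng2 exon bases. The pseudogene Gng2-ps1 had 0 counts in all 8 libraries. Gng8, an olfactory Gγ and chosen after its values were seen, had 56, 77, 69 and 115 counts in LLC1 and 0, 7, 0 and 2 counts in MLE12 (5.54 ± 0.50, edgeR adjusted p = 1.1e-08). Without MLE12 replicate 2 the log2 fold change of Gng8 was 7.05. Its level in LLC1 was 1.59 ± 0.406 CPM.

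Gng10, Gng5 and Gng12, Gγ genes of wide tissue range, were abundant in each line. Gng5 stood at 72.6, 61.3, 71.9 and 68.1 CPM in LLC1 and 70.0, 65.3, 77.9 and 81.7 in MLE12, with overlapping libraries and no call (-0.11 ± 0.07, edgeR adjusted p = 0.16), and a call for MLE12 without MLE12 replicate 2. Gng12 stood at 74.8 ± 2.28 CPM in LLC1 and 66.2 ± 5.07 in MLE12 (0.18 ± 0.05, edgeR adjusted p = 0.0040), again with overlap. Gng10 stood at 56.2, 50.7, 53.9 and 52.3 CPM in LLC1 and 24.2, 22.2, 24.2 and 27.5 in MLE12 (log2 fold change 1.12 ± 0.06). It passed the 2-fold test (edgeR adjusted p = 0.022), and that call was lost without MLE12 replicate 1, 2 or 3. Gm20503 shares 72.0% of the Gng10 exon bases on the same strand. It had 2396, 2669, 2563 and 2710 counts in LLC1 and 1880, 1685, 1902 and 1361 in MLE12, against 2433, 2711, 2609 and 2749 in LLC1 and 1867, 1677, 1910 and 1375 in MLE12 for Gng10. Whether the same reads were counted in both rows was not tested, and the level of Gng10 is uncertain.

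The remaining Gγ genes averaged under 10 CPM in each line. Gng7, which works with Golf in striatum, stood at 3.96 ± 0.435 CPM in LLC1 and 8.85 ± 0.134 in MLE12 (-1.15 ± 0.10, edgeR adjusted p = 1.5e-09) and did not pass the 2-fold test (edgeR adjusted p = 0.054), although it did without LLC1 replicate 2, with DESeq2 size factors, with library totals alone, with no filter and with the 20 most abundant genes left out. Gng13, known from taste and olfactory cells, stood at 4.42 ± 0.177 CPM in LLC1 and 6.62 ± 0.933 in MLE12 (-0.59 ± 0.11, edgeR adjusted p = 8.1e-05). The antisense gene Chtf18 covers 51.6% of its exon bases and had 8109 counts in LLC1 and 18390 in MLE12, so Gng13 is uncertain. Gng3, a neuronal Gγ, stood at 4.89 ± 0.414 CPM in LLC1 and 4.05 ± 0.480 in MLE12 (0.27 ± 0.12, edgeR adjusted p = 0.041), and the antisense gene Bscl2 covers 24.2% of its exon bases. Gng11, a farnesylated Gγ, stood at 1.20 ± 0.232 CPM in LLC1 and 0.817 ± 0.172 in MLE12 (0.54 ± 0.22, edgeR adjusted p = 0.036). The Gng3 call was lost without LLC1 replicate 1 or 2 or MLE12 replicate 2, 3 or 4, and the Gng11 call without LLC1 replicate 1 or 3 or MLE12 replicate 1 or 4. Gng4 had 20 counts in LLC1 and 4 in MLE12 and was not tested.

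Per length, the summed Gγ mRNA was 109 ± 4.12 CPM per kb in LLC1 and 74.0 ± 5.46 in MLE12, with no overlap of libraries. Gng10, whose level is uncertain, gave 40.6 CPM per kb of this sum in LLC1 and 18.7 in MLE12, so the sum is uncertain too. Per length, different Gγ genes led in the lines. Gng10 led in LLC1 with 37.1% of the Gγ mRNA, ahead of Gng5 (22.9%), Gng12 (14.6%) and Gng2 (13.8%). Gng5 led in MLE12 with 36.4%, ahead of Gng10 (25.2%), Gng12 (19.1%) and Gng13 (11.6%), and Gng2 held 0.0299%. These orders depend on the lengths and on the uncertain levels of Gng10 and Gng13. Without division by length Gng12 led in LLC1 with 26.8%, ahead of Gng5 (24.5%), Gng2 (23.7%) and Gng10 (19.1%), and Gng5 led in MLE12 with 39.8%, ahead of Gng12 (35.8%) and Gng10 (13.3%). The summed Gα mRNA was 212 ± 5.24 CPM per kb in LLC1 and 227 ± 2.09 in MLE12, and the summed Gβ mRNA 191 ± 6.46 in LLC1 and 213 ± 3.42 in MLE12. These sums carry no test.

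**Figure D3:**
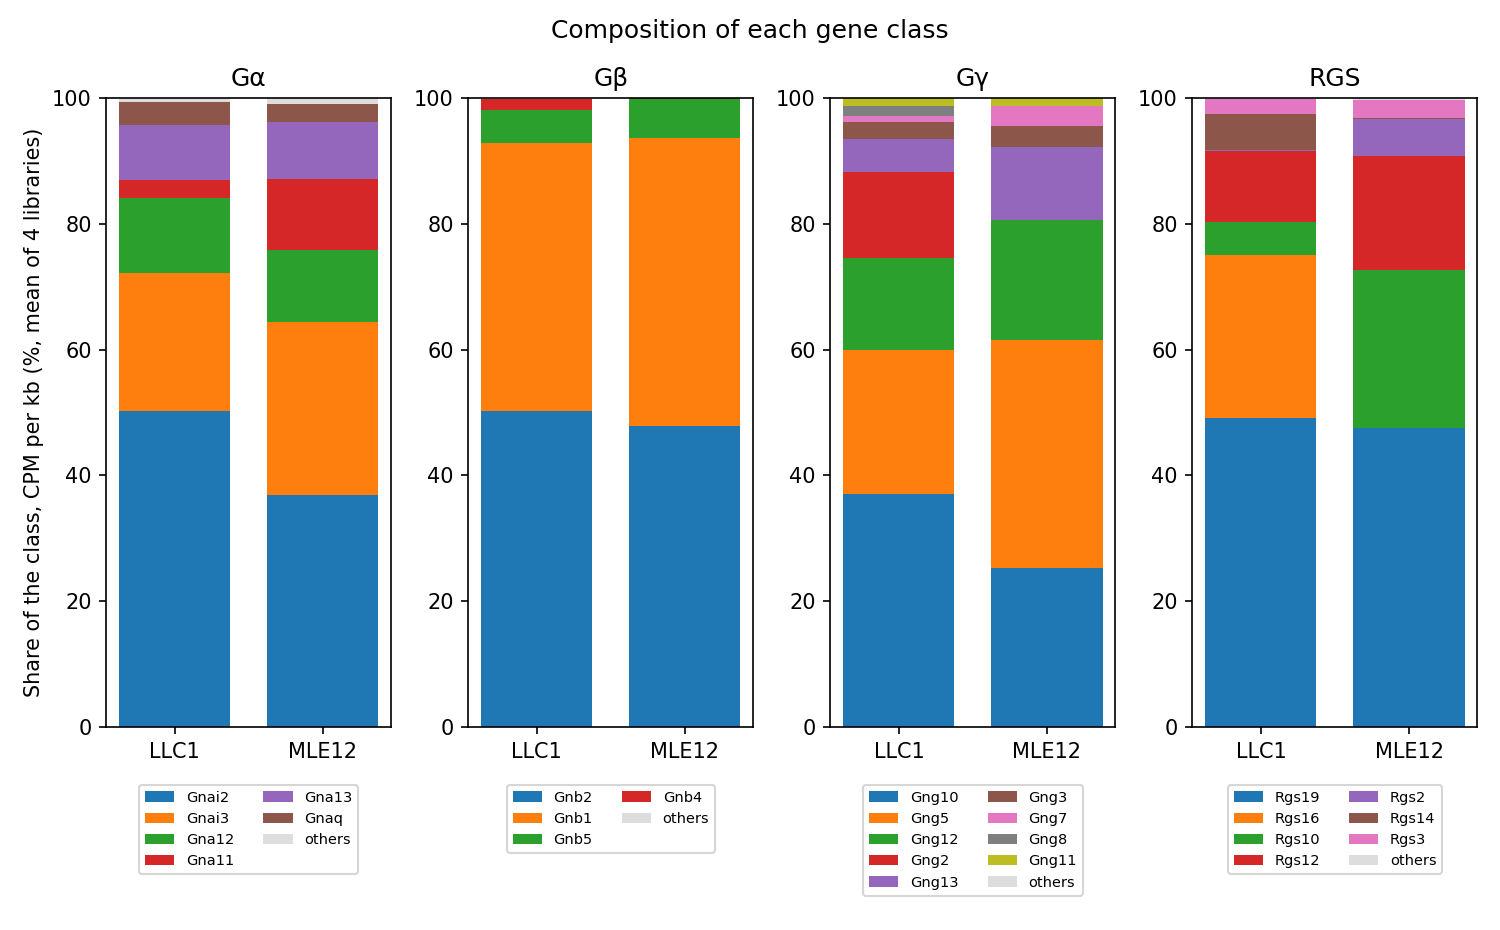
Share of each gene in the summed CPM per kb of its class (percent, mean of 4 libraries), LLC1 on the left and MLE12 on the right in each panel, with genes under 1% in each line joined as others. Gng2 and Rgs16 fill 13.8% and 25.9% of their classes in LLC1 and under 0.1% in MLE12, while Gna11 and Rgs10 take larger shares in MLE12.

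RGS genes differed in both directions, and 3 of the 4 past 2-fold (Rgs16, Rgs14 and Rgs2) stood under 0.25 CPM in every library of the lower line. Of 9 RGS genes 7 were tested, of which 3 were called for LLC1, 3 for MLE12 and 1 for neither (median log2 fold change 0.10). Rgs16, an R4 group RGS that acts on Gi and Gq (chromosome 1, 153740349 to 153745468, mm10), stood at 22.9, 20.7, 21.0 and 19.8 CPM in LLC1 and 0.0517, 0.0663, 0.0381 and 0 in MLE12. The MLE12 libraries held 4, 5, 3 and 0 counts, and the log2 fold change was 8.88 ± 0.18 (edgeR adjusted p = 2.7e-19). The antisense gene Gm28513 covers 10.1% of the Rgs16 exon bases and had 658 counts in LLC1 and 4 in MLE12. Rgs2, an R4 group RGS with a preference for Gq (chromosome 1, 143999338 to 144004161, mm10), stood at 0.139, 0.112, 0.207 and 0.228 CPM in LLC1 and 5.65, 5.57, 6.22 and 6.74 in MLE12 (-5.12 ± 0.20, edgeR adjusted p = 7.3e-15). Their libraries did not overlap. Rgs3, of the same group, stood at 9.24 ± 0.947 CPM in LLC1 and 8.62 ± 0.544 in MLE12 and was not called (0.10 ± 0.09, edgeR adjusted p = 0.31).

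Rgs4 and Rgs5, adjacent R4 genes 45.7 kb apart on chromosome 1 with no gene between them in the table, had too few counts to be tested. Rgs4, described after its values were seen, had 0 counts in each LLC1 library and 20, 15, 8 and 1 counts in MLE12. From summed counts it was about 11-fold higher in MLE12 against a floor of 3 counts over the LLC1 libraries. That ratio leaves out the spread between the MLE12 libraries, which ran from 0.0200 to 0.259 CPM. Rgs5, a pericyte gene, had 27 counts over the LLC1 libraries and 50 over the MLE12 libraries.

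The R12 group acts mainly on Gi. Rgs14, which also binds Ras and GDP-bound Gαi (chromosome 13, 55369732 to 55384687, mm10), stood at 4.99, 4.21, 5.73 and 5.12 CPM in LLC1 and 0.142, 0.0663, 0.102 and 0 in MLE12 (5.85 ± 0.29, edgeR adjusted p = 5.8e-13). Rgs10, the smallest member of the group (chromosome 7, 128373621 to 128418758, mm10), stood at 3.35, 2.49, 3.53 and 2.93 CPM in LLC1 and 11.7, 12.3, 12.5 and 11.5 in MLE12 (-1.96 ± 0.10, edgeR adjusted p = 1.3e-12). Rgs12 stood at 31.9, 29.3, 30.5 and 32.8 CPM in LLC1 and 41.5, 40.9, 40.3 and 36.3 in MLE12 (-0.35 ± 0.06, edgeR adjusted p = 9.1e-06). The libraries of the lines were apart for all 3 genes of the group. Rgs19, the RZ group gene also called GAIP, stood at 37.3, 36.6, 38 and 40.3 CPM in LLC1 and 29.3, 29.8, 30.8 and 27.9 in MLE12 (0.37 ± 0.05, edgeR adjusted p = 2.3e-06). Per length, Rgs19 led the RGS genes with 49.1% in LLC1 and 47.5% in MLE12. The second place went to Rgs16 in LLC1 (25.9%) and to Rgs10 in MLE12 (25.1%). Without division by length Rgs19 led in LLC1 with 35.3%, ahead of Rgs12 (28.8%) and Rgs16 (19.6%), and Rgs12 led in MLE12 with 41.3%, ahead of Rgs19 (30.6%) and Rgs10 (12.4%). The summed RGS mRNA was 34.8 ± 1.22 CPM per kb in LLC1 and 27.8 ± 0.974 in MLE12.

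The 36 genes lie on 16 chromosomes. Some lie beside a paralog that stood at a very different level. Gna15 lies 4.5 kb from Gna11 with no gene between, yet Gna11 was at 25.5 CPM in LLC1 and 105 in MLE12 while Gna15 was at 0.0631 CPM in LLC1 and 0.187 in MLE12. Gna14 lies 48.2 kb from Gnaq, again with no gene between, and was at 0.260 CPM in LLC1 and 0.127 in MLE12 beside 47.9 and 39.4 CPM for Gnaq. Gnai3 lies 5.85 kb from the transducin gene Gnat2, named after its values were seen, which was higher in LLC1 (1.92 CPM in LLC1 and 0.756 in MLE12, 1.35 ± 0.20, edgeR adjusted p = 5.1e-06), opposite in sign to Gnai3. Among genes with at least 100 counts in every library of a line, the coefficient of variation over the 4 libraries was 1.49% to 16.5% in LLC1 (24 genes, median 4.94%) and 1.27% to 14.1% in MLE12 (23 genes, median 6.31%). Of the 31 genes tested, 22 had no overlap between the lines (10 higher in LLC1 and 12 in MLE12), against 76.3% of all genes tested (37.7% higher in LLC1 and 38.7% in MLE12).

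Other genes of G protein signalling were read from 11 lists of 168 genes in the table, also drawn up with earlier results known. Of 102 tested, 47 were called for LLC1 and 42 for MLE12 as the higher line, with 13 uncalled, beside the 81.6% of all genes called. Of 7 other RGS genes tested of 14 listed, 4 were higher in LLC1 and 2 in MLE12, with a median log2 fold change of 0.27. This list counts Axin1 and Axin2, which do not carry an RGS name. Axin1 (0.27, called for LLC1) sets the median, and Axin2, named after its values were seen, was called for MLE12 (-3.41). Rgs17, which like Rgs19 belongs to the RZ group, stood at 15.0 CPM in LLC1 and 0.163 in MLE12 (6.56 ± 0.19, edgeR adjusted p = 1.1e-16). Rgs20, the remaining RZ gene and named after its values were seen, stood at 3.90 CPM in LLC1 and 0.0770 in MLE12 (5.66 ± 0.24, edgeR adjusted p = 3.8e-14).

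The effectors of Gs and Gi differed by isoform. Of 7 adenylyl cyclases tested of 10, 3 were higher in LLC1 and 4 in MLE12 (median -0.49). Adcy7 stood at 31.5 CPM in LLC1 and 1.01 in MLE12 (4.95 ± 0.09), and Adcy3 at 56.7 CPM in LLC1 and 15.3 in MLE12 (1.88 ± 0.07). Adcy1 stood at 0.171 CPM in LLC1 and 48.1 in MLE12 (-8.11 ± 0.14), and Adcy5, a cyclase inhibited by Gi, at 0.591 CPM in LLC1 and 52.1 in MLE12 (-6.46 ± 0.10). Of 15 cAMP effectors and phosphodiesterases tested of 18, 9 were higher in LLC1 and 5 in MLE12 (median 0.98), with Pde3b at 42.5 CPM in LLC1 and 0.160 in MLE12 (8.16 ± 0.19) and Prkaca at 81.7 CPM in LLC1 and 238 in MLE12 (-1.54 ± 0.05). Of the Gq effectors, 2 of 4 phospholipase C β genes were tested, with Plcb3 at 160 CPM in LLC1 and 65.2 in MLE12 (1.30 ± 0.05) and Plcb4, named after its values were seen, higher in MLE12 (-2.69 ± 0.15). Of 7 receptor kinases and arrestins tested of 8, 1 was higher in LLC1 and 4 in MLE12 (median -0.29), with Arrb1 at 15.5 CPM in LLC1 and 94.4 in MLE12 (-2.60 ± 0.06). Of 12 chaperones and non-receptor regulators tested of 13, 7 were higher in LLC1 and 5 in MLE12 (median 0.18), with Gpsm3, which binds Gαi, at 28.5 CPM in LLC1 and 0.501 in MLE12 (5.83 ± 0.12). The 5 tested of 7 other subunit and subunit-like genes comprised 1 higher in LLC1 and 3 in MLE12. Their median of -0.49 was the value of Gnb1l, a Gβ-like gene called for MLE12.

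Receptors also differed by gene within each listed coupling class. Of receptors listed as coupling mainly to Gs, 5 were higher in LLC1 and 5 in MLE12 (11 tested of 21, median -0.31). Of those listed for Gi, 4 were higher in LLC1 and 6 in MLE12 (13 of 29, median -0.61). For Gq the counts were 10 in LLC1 and 3 in MLE12 (15 of 34, median 1.06), and for G12/13 they were 2 in LLC1 and 4 in MLE12 (8 of 10, median -0.53). The main coupling is uncertain for Lgr5 in the Gs list and for S1pr5 and Gpr4 in the G12/13 list. Lgr5 and S1pr5 were called for MLE12 and Gpr4 was not called, Lgr5 and Gpr4 being named after their values were seen. Adcyap1r1, the receptor for the peptide PACAP, stood at 61.9 CPM in LLC1 and 0.103 in MLE12 (9.35 ± 0.14). Adora1, a Gi-coupled adenosine receptor, stood at 0.260 CPM in LLC1 and 93.0 in MLE12 (-8.48 ± 0.11). Ffar4, a receptor for long-chain fatty acids, stood at 0.192 CPM in LLC1 and 62.2 in MLE12 (-8.32 ± 0.11). Each effector and receptor named with its levels was called (largest edgeR adjusted p = 2.5e-12, for Plcb4). Exons of other genes overlap parts of Gnas, Adcy3, Gpsm3 and Adora1, whose values are uncertain to that extent. How receptor and subunit differences relate was not tested.

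**Figure D4:**
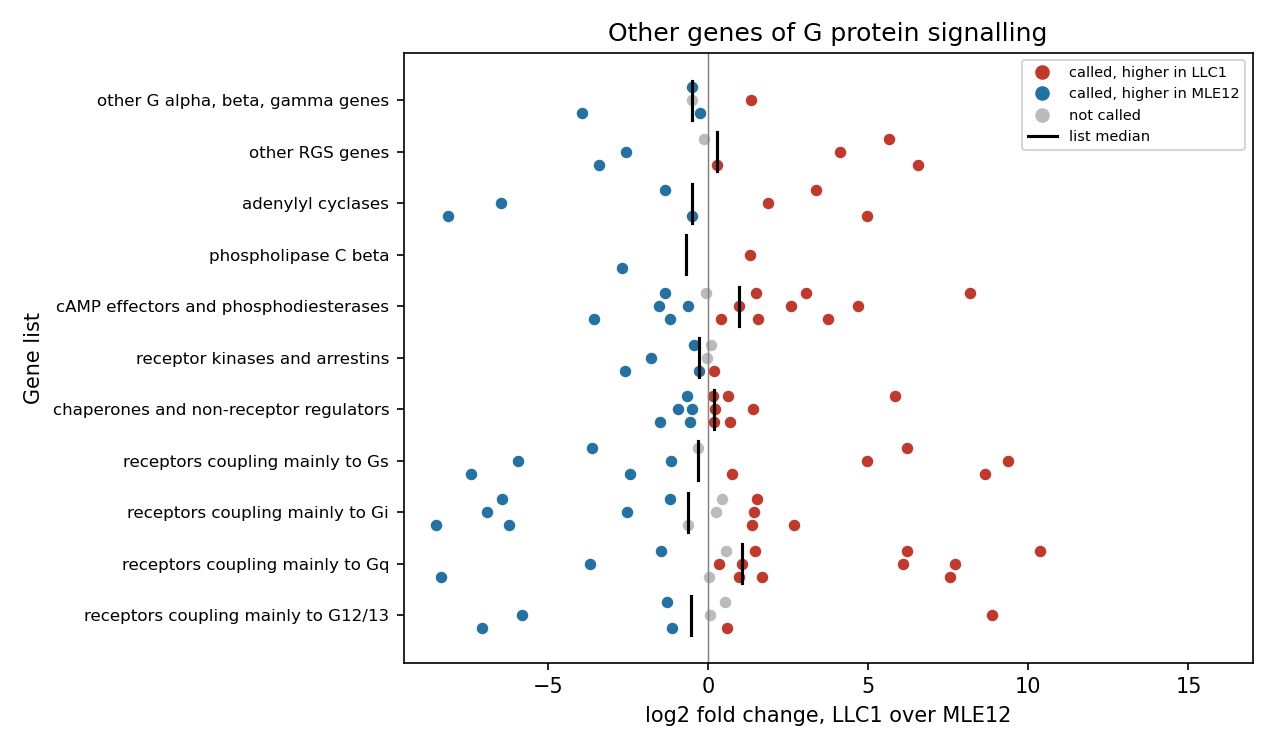
Log2 fold change, LLC1 over MLE12, of the tested genes in each of 11 lists (points, spread vertically for legibility), red where called higher in LLC1, blue where called higher in MLE12 and grey where not called, with a black bar at the list median. Each list holds called genes on each side of 0, and the medians lie between -0.69 and 1.06.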

How the data were processed

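Poly-A mRNA of LLC1 and MLE12 cells was sequenced as paired reads of 100 nt, per the labels' protocols. The deposited table gives raw counts per gene with names, positions and lengths in mm10. The submitters' processing notes name CASAVA, TopHat2, featureCounts and edgeR, without versions; the strand setting and the treatment of reads shared by overlapping genes are not given in the sources used here. In every library more genes had a count of 2 than of 1 (1392 against 1130 in LLC1 replicate 1), and whether both mates of a pair were counted was not tested. The deposited lengths, headed as coding lengths, equal the exon union of GENCODE M21 for most members, untranslated parts included, and served for levels per kb.

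The test was run in edgeR 4.0.16 under R 4.3.3 (filterByExpr, TMM, glmQLFit robust, glmQLFTest, and glmTreat against a fold of 2), over all 8 libraries without covariates, with Benjamini-Hochberg adjustment at 0.05. Each SE was taken as the absolute log2 fold change divided by the root of F. No library copied another (chi-square per degree of freedom within a line 6.76 to 58.4). The fit was tested on simulated data. The members, lists and tests were chosen with earlier results of these data known. Values per library are given for members past the 2-fold test with at least 5 CPM in the higher line and for the leading member of each subunit class per line. From the other lists come at most 3 called genes per direction of at least 10 CPM, and Gnas; not all of these are printed, and a gene outside these rules is marked in the text as picked with its values in view. A list of effector genes is not reported here. Alternatives used DESeq2 1.42.0, limma 3.58.1 (voom), other scalings and filters, a replicate block and each library left out.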

Additional observations from a re-analysis of the deposited data

Results flagged for a closer look

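For 4 of 72 sets of 4 libraries (36 genes in 2 lines), 1 library stood apart from the other 3 of its line. Chance alone sets about 1 such set in 20 apart. Gng2 stood at 0.160 CPM in MLE12 replicate 4, from 8 counts, against 0.0761 to 0.0795 CPM in the other MLE12 libraries. Gng8 stood at 2.19 CPM in LLC1 replicate 4, against 1.29 to 1.44 CPM. Gnb1 stood at 425 CPM in MLE12 replicate 4, against 412 to 414 CPM, and Rgs3 at 9.43 CPM in MLE12 replicate 1, against 8.29 to 8.40 CPM.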

How the results depend on the processing

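Over 17 alternatives to the fit, 10 to 15 of the 36 genes were called higher in LLC1 and 11 to 16 higher in MLE12, and 6 to 7 and 4 to 7 passed 2-fold. The genes whose call changed were those of small difference or low count. Gnb3, Gng3 and Gng11 were lost under DESeq2, library totals alone and no filter. Gnb3 was also lost under limma-voom and with the 20 most abundant genes left out. Gnb2 was gained under DESeq2, library totals alone and no filter, Gng5 under the last pair, and Gng4 and Rgs4 under DESeq2 and no filter. Library totals alone also lost Gng12 and gained Gna12, and no filter gained Gna15. Gnaz and Gnb3 were not tested under the filter of at least 1 CPM in 4 libraries. Without a single library, Gnal was gained without LLC1 replicate 3, Gna14 without LLC1 replicate 3 or 4, and Gna15 without LLC1 replicate 4 or MLE12 replicate 2. Gng10 no longer passed 2-fold under DESeq2, limma-voom, library totals alone or no filter, and Gng7 passed it with DESeq2 size factors, library totals alone, no filter or the 20 most abundant genes left out. The sign turned for 2 genes that the reported fit did not call: Gna12 with upper-quartile factors (0.0172), at least 1 CPM in 4 libraries (0.00999) or without LLC1 replicate 2 (range over left-out libraries -0.0961 to 0.0024), and Rgs3 with library totals alone (-0.0012). Deviations from the line means correlated weakly, at -0.0646 to 0.108 for same-numbered libraries of the lines and -0.0922 to 0.0685 for other pairs. Correlations this weak cannot decide whether the numbers pair libraries. With a replicate block 24 members were called, all among the 26 of the fit without it (Gnb3 and Gng3 were lost). Without division by length the genes that lead per length held 47.9% (Gnai2 in LLC1) and 35.3% (Gnai2 in MLE12), 44.7% (Gnb2 in LLC1) and 44.3% (Gnb2 in MLE12), 19.1% (Gng10 in LLC1), 39.8% (Gng5 in MLE12), and 35.3% (Rgs19 in LLC1) and 30.6% (Rgs19 in MLE12). Gnb1 then led in each line, Gng12, Gng5 and Gng2 stood above Gng10 in LLC1, and Rgs12 led in MLE12. With exon lengths of GENCODE M21, chosen after seeing the data, they were 51.9% for Gnb2 in LLC1 and 49.7% in MLE12, 37.5% for Gng10 in LLC1 and 48.1% for Rgs19 in MLE12.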
